A study of Mus musculus with 22 samples.

Results

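The immediate early, heat shock and stress genes are 42 genes chosen by symbol, and all 42 were found among the 55011 genes of the mouse count table. Of these, 40 passed the filter on low counts and were among the 15462 genes tested. RNA was measured by Smart-seq, a full-length method for small samples, in samples of 1000 sorted CD4+ T cells from the lymph nodes of C57BL/6 scurfy recipients, mice that lack functional FOXP3. FOXP3 cells were lymph-node CD4+ T cells of 10-day-old scurfy mice given human FOXP3 in a vector that also carries LNGFR, a surface tag used for the sort. WT Treg were CD4+ CD25+ T cells marked by CD45.1, and LNGFR cells were the same kind of scurfy cells given the vector with LNGFR alone. All 3 groups went into scurfy recipients that had received cyclophosphamide at 50 mg/kg when 10 days old. Cells were transferred on day 14, IL-2 was injected at 1000 IU/g daily for 5 days and then weekly, and the CD4+ cells were sorted on day 50. The labels give a scurfy genotype for every sample, WT Treg included, which goes against the name of that group. There were 5 FOXP3 codes (F1, F2, F5, N2 and N3), 3 WT Treg codes (E2, G4 and L1) and 3 LNGFR codes (G1, G2 and G3). A code is a letter and number in the sample title. Each code had 2 libraries, which were summed to 1 replicate. The labels do not say that a code is 1 mouse, so the p-values measure the spread between codes, which may in part be technical.

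Immediate early genes such as Fos, Jun, Junb and Ier2 are switched on within minutes of antigen, growth factor or stress signals, without new protein synthesis, and their transcripts decay fast, partly through the ZFP36 proteins. Fos and Jun proteins pair into AP-1, a transcription factor that drives cytokine genes in activated T cells. Heat shock genes encode chaperones and are switched on by HSF1 when proteins misfold in the cytosol, while the unfolded protein response raises Hspa5 and Hsp90b1 when they misfold in the endoplasmic reticulum, and ATF4 carries the integrated stress response. Immediate early and heat shock transcripts are also known to be induced while tissue is dissociated and cells are sorted.

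Total counts ran from 3586577 to 5453375 per library in FOXP3 cells, from 512646 to 3564574 in WT Treg and from 332570 to 3981226 in LNGFR cells. The 3 shallowest were both libraries of WT Treg code E2 (641980 and 512646 counts) and the second library of LNGFR code G1 (332570 counts). In the order E2, E2 and G1, the predicted transcripts Gm10800 and Gm10801 took 54.6%, 46.4% and 28.0% of the counts, against 2.05% to 4.18% in the other libraries. Levels are given as CPM, counts per 1000000 of a code's total after TMM scaling. The summed level of 10 CD4 T cell markers was 4763 to 7385 CPM in FOXP3 codes, 3071 to 7461 CPM in WT Treg codes and 6474 to 8242 CPM in LNGFR codes. The mouse Foxp3 gene read 162 to 313 CPM in FOXP3 codes, 704 to 1630 CPM in WT Treg codes and 42.7 to 143 CPM in LNGFR codes. The introduced gene is human and reads were counted on mouse genes, so these values are not a measure of the introduced FOXP3. Whether some reads of the human gene were counted on mouse Foxp3 was not tested. FOXP3 code N3 carried B-cell transcripts, with 13890 CPM over 12 B-cell markers, against at most 4186 CPM in any WT Treg code and at most 3298 CPM in any LNGFR code. Results are therefore also given leaving out the 3 shallow libraries, or the codes E2, G1 and N3 altogether. The latter leaves only F1, F2, F5 and N2 in FOXP3, G4 and L1 in WT Treg, and G2 and G3 in LNGFR.

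The start regions of 34 of the 42 genes were available from RefSeq (GRCm38.p6), as 250 bases before and 50 bases after the start of transcription. Ier2, Hsf1, Hspa8, Hsp90aa1, Hsp90ab1, Rgs1, Zfp36l2 and Hmox1 had no entry. The 4 printed here run 5′ to 3′ on the gene's strand and were chosen as follows. Ier3 was the gene that passed the test in both comparisons with LNGFR. Ppp1r15a varied widely between codes and little between the libraries of a code. Hspa5 had the smallest SD between FOXP3 codes of the 40 tested genes, and Hspe1 is a mitochondrial chaperonin gene with matches to the heat shock element. Capitals mark motif matches. In Ier3, chr17:35821463-35821762 (plus strand), they mark an NF-kB site at -92 to -83. In Ppp1r15a, chr7:45526219-45526518 (minus strand), they mark a cAMP response element, TGACGTCA, at -12 to -5 and TATAAA at 16 to 21. In Hspa5, chr2:34771840-34772139 (plus strand), they mark an AP-1 site, TGANTCA, at -182 to -176 and an ER stress response element, CCAAT followed after 9 bases by CCACG, at -65 to -47. In Hspe1, chr1:55087898-55088197 (plus strand), they mark overlapping heat shock elements, each of 3 alternating GAA and TTC triplets 2 bases apart, between -89 and -72.
Ier3: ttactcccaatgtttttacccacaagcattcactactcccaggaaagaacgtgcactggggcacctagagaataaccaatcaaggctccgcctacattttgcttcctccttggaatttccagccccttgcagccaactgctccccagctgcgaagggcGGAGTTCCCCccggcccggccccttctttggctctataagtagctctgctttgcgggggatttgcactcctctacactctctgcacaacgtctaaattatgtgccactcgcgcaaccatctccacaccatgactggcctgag
Ppp1r15a: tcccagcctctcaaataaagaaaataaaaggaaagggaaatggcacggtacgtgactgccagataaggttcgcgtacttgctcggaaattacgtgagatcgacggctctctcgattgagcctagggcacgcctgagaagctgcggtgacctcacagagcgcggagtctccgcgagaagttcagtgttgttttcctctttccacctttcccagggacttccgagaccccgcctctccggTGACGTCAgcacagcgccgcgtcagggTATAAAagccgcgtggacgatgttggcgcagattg
Hspa5: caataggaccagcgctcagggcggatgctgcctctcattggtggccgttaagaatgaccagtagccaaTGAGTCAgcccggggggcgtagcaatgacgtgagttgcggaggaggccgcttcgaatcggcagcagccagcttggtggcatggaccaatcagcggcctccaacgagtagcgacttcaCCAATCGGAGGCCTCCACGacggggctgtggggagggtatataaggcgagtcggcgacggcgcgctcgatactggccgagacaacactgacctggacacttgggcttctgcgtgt
Hspe1: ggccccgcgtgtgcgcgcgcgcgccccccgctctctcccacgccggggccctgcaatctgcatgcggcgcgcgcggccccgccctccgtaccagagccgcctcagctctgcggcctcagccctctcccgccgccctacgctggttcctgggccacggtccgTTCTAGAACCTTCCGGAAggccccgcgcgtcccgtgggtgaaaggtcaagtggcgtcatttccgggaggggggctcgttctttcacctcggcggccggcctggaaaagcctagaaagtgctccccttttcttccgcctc

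Matches to the same motifs on either strand were counted over the start regions of 27025 genes. A heat shock element was found in Hsph1, Hspd1 and Hspe1, and in 0.662% of all genes. The start regions of Hspa1a, Hspa1b, Dnaja1 and Dnajb1 had no match to it. The Hspd1 and Hspe1 matches are the same bases, since both genes start from a shared region in opposite directions. An ER stress response element was found in Hspa5 and Hsp90b1, the endoplasmic reticulum chaperones BiP and GRP94, and in 0.137% of all genes. A CArG box, the element bound by serum response factor, was found in Zfp36 and in 1.81% of all genes. A cAMP response element was found in Btg2 and Ppp1r15a and in 2.03% of all genes, and an AP-1 site in Zfp36l1, Ddit3 and Hspa5 and in 8.97% of all genes. An NF-kB site was found in Fos, Fosb, Fosl2 and Ier3 and in 5.14% of all genes, and that motif was added after the values of Ier3 were known. TATAAA was found in 8 of the 34 genes and in 15.7% of all genes. The matches are a description of these letters and no binding was measured.

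The genes covered a wide range of levels. Scaled to CPM per kilobase of exon, Junb stood highest in FOXP3 codes at a mean of 684 CPM per kilobase, followed by Hsp90ab1 at 601, Hspa8 at 311, Fos at 228 and Hspa5 at 218 CPM per kilobase. At the low end, Gadd45a, Atf3, Fosl2, Klf4 and Hmox1 lay between 1.04 and 3.63 CPM per kilobase in FOXP3 codes. Hspa1a and Hspa1b, the heat-inducible HSP70 genes and the classical readout of a heat shock response, had few counts. Hspa1a had 14 counts over all FOXP3 codes, 16 over WT Treg and 5 over LNGFR, or 0.296 CPM (95% exact Poisson interval 0.162 to 0.496), 1.11 CPM (0.633 to 1.80) and 0.285 CPM (0.0924 to 0.664). Hspa1b had 7 counts in FOXP3, 1 in WT Treg and 2 in LNGFR codes. These genes are near-copies: 68.8% of the 38-base windows of Hspa1a transcripts and 65.9% of those of Hspa1b occur in other genes, and the reads were 38 bases long. The intervals cover counting error only and not the spread between codes. Of the 16 WT Treg counts of Hspa1a, 13 were in G4, 2 in E2 and 1 in L1. Neither gene was tested.

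Against LNGFR cells, the FOXP3 cells were set to ask how the introduced FOXP3 changes these transcripts, and the WT Treg to ask how a natural regulatory cell differs. Both comparisons share the 3 LNGFR codes. In FOXP3 against LNGFR cells, 1 of the 40 genes fell by the edgeR quasi-likelihood test with Benjamini-Hochberg adjustment over all genes tested at 0.05, and none rose. Over all 15462 genes, 0.375% fell and 0.168% rose. The gene was Ier3. At an unadjusted p under 0.05 there were 4 genes, Ier3, Rgs1, Fosl2 and Ier5, all lower, beside 1595 of the 15462 genes in either direction, a similar share. Neither DESeq2 nor limma voom called any of the 40 higher. In WT Treg against LNGFR cells, 2 of the 40 fell, Ier3 and Rgs1, where 0.673% of all genes fell. None rose, where 0.627% of all genes rose. Beside the called genes only Atf4 had an unadjusted p under 0.05, and it was also lower, so 3 of the 40 had one, beside 2290 of the 15462 genes. By other tools, limma voom with quality weights called 1 gene higher, Zfp36l1, and DESeq2 none.

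**Figure D1:**
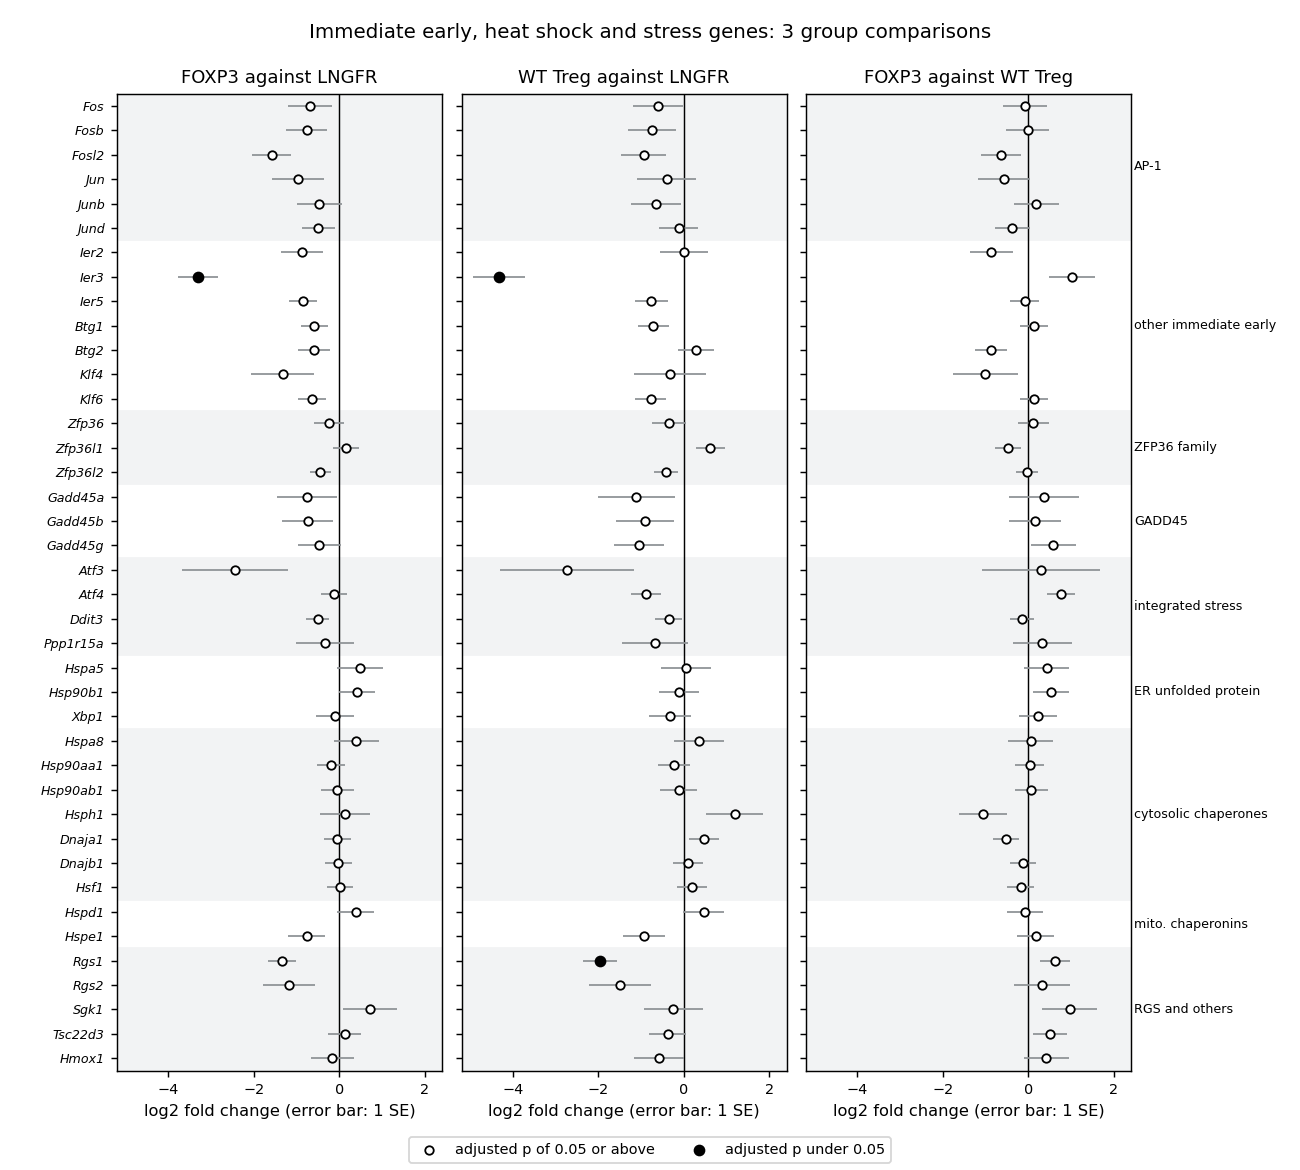
Log2 fold changes of the 40 tested genes (x axis, points, with error bars of 1 standard error) in the 3 comparisons, grouped by role from top to bottom. Filled points mark an adjusted p under 0.05: Ier3 at -3.31 and -4.33 against LNGFR and Rgs1 at -1.96 in WT Treg against LNGFR; no point is filled in FOXP3 against WT Treg.

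Ier3, a stress-inducible early response protein linked to cell survival and to NF-kB signalling, lies on chromosome 17 (chr17:35821684-35822923, plus strand, GENCODE annotation of GRCm38). It had 14.3, 7.17, 10.0, 6.54 and 6.75 CPM in the FOXP3 codes F1, F2, F5, N2 and N3. The WT Treg codes E2, G4 and L1 had 0, 4.37 and 5.99 CPM, and the LNGFR codes G1, G2 and G3 had 149, 39.4 and 79.1 CPM. Every LNGFR code lay above every FOXP3 code and every WT Treg code, and every FOXP3 code lay above every WT Treg code. The 0 in E2 allows up to 3.95 CPM (3 counts). Means were 8.96 ± 3.31 CPM in FOXP3 (SD, n = 5), 3.45 ± 3.10 CPM in WT Treg and 89.1 ± 55.5 CPM in LNGFR codes (SD, n = 3 each). The fitted log2 fold change was -3.31 ± 0.46 (SE) in FOXP3 against LNGFR cells (edgeR adjusted p = 0.00577) and -4.33 ± 0.61 in WT Treg against LNGFR cells (edgeR adjusted p = 0.00346). In bulk samples, fewer cells that make a transcript and less of it per cell cannot be told apart.

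No Ier3 sequence window is shared with another gene, and its call and direction held in each of 18 alternative settings of both comparisons. Over these the log2 fold change ranged from -3.55 to -2.65 in FOXP3 against LNGFR cells, with edgeR, DESeq2 or limma adjusted p at most 0.0399, and from -4.66 to -3.41 in WT Treg against LNGFR cells, with adjusted p at most 0.0322. Plasma-cell transcripts also stood high in LNGFR libraries. The sum of 8 plasma-cell markers was 47.9 to 2426 CPM in FOXP3 libraries, 44.9 to 680 CPM in WT Treg libraries and 499.6 to 10622 CPM in LNGFR libraries. None of the 7 tested plasma-cell markers was called in either comparison, with median log2 fold changes of -1.78 in FOXP3 against LNGFR and -3.63 in WT Treg against LNGFR cells. Within LNGFR, the first library of G1 had 213 CPM of Ier3 beside 10622 CPM of plasma-cell markers, and its second library had 12.1 CPM beside 768 CPM. That second library is the shallow one of 332570 counts. Its CD4 T cell markers were lower too, at 1464 CPM against 11677 CPM in the first. In G2, Ier3 and the plasma-cell markers went opposite ways: 46.8 CPM of Ier3 beside 499.6 CPM of markers in the first library and 26.9 CPM beside 1450 CPM in the second. Both libraries of FOXP3 code N3, with 2206 and 2426 CPM of plasma-cell markers, had 6.38 and 6.94 CPM of Ier3. Myeloid transcripts summed over 12 markers to 14.1 to 22.9 CPM in FOXP3 codes, 29.9 to 75.4 CPM in WT Treg codes and 7.19 to 33.0 CPM in LNGFR codes. The highest values of single myeloid markers were in WT Treg codes, with Lyz2 at 55.4 CPM in L1 and Adgre1 at 22.4 CPM in E2. S100a8, a defining neutrophil gene, ran from 0 in F1, F2, F5, G4 and G3 to 2.63 CPM in E2. The part of other cells in the Ier3 difference was not tested.

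**Figure D2:**
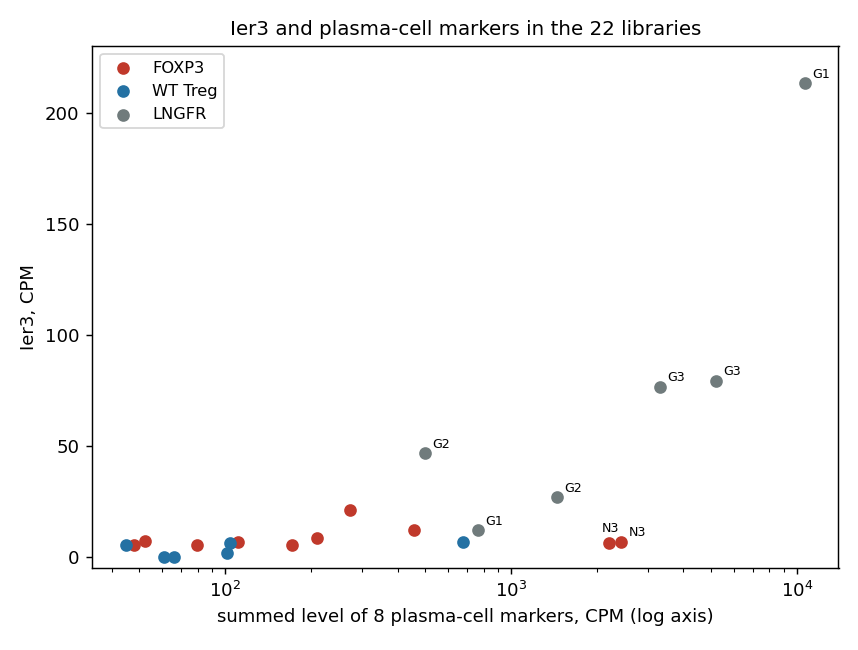
Ier3 level (y axis, CPM) against the summed level of 8 plasma-cell markers (x axis, CPM, log axis) in the 22 libraries, coloured by group, with codes written beside the LNGFR and N3 libraries. Both N3 libraries lie at 6.38 and 6.94 CPM of Ier3 at marker sums above those of the G2 libraries, and the 6 LNGFR libraries span 12.1 to 213 CPM. The 12.1 CPM is that of the shallow second library of G1.

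Rgs1, a GTPase-activating protein that shortens chemokine receptor signalling, followed Ier3 in the comparisons with LNGFR. Its levels were 620, 433, 615, 805 and 875 CPM in FOXP3 codes F1, F2, F5, N2 and N3. WT Treg codes E2, G4 and L1 had 263, 487 and 552 CPM, and LNGFR codes G1, G2 and G3 had 1872, 1936 and 1283 CPM. No FOXP3 or WT Treg code reached the lowest LNGFR code, whereas FOXP3 and WT Treg codes overlapped. The log2 fold change was -1.34 ± 0.33 in FOXP3 against LNGFR cells, which did not pass (edgeR adjusted p = 0.103), and -1.96 ± 0.40 in WT Treg against LNGFR cells, which did (edgeR adjusted p = 0.0279). Neither side of the threshold was settled: the first comparison passed without the 3 shallow libraries (edgeR adjusted p = 0.0241), without the codes E2, G1 and N3 (0.00487) and without E2 alone (0.0264), while the second did not pass without F1, F5, G2, G3, G4 or L1 (edgeR adjusted p 0.0510 to 0.275). The libraries of G1 differed at 2671 and 221 CPM of Rgs1. Rgs1 lies on chromosome 1, 6.07 Mb from Ptprc, which encodes the CD45 marker that tells the WT Treg donors apart, and Rgs2 lies 5.82 Mb and Btg2 3.98 Mb from it. The part of flanking sequence from the CD45.1 strain was not tested. Rgs2, a relative induced by many signals, had 21.6, 18.0, 77.7, 99.6 and 75.6 CPM in FOXP3 codes, 25.0, 20.2 and 91.5 CPM in WT Treg codes and 192, 151 and 56.3 CPM in LNGFR codes. The groups overlapped, and its log2 fold changes of -1.18 ± 0.62 and -1.50 ± 0.73 against LNGFR did not pass (edgeR adjusted p = 0.564 and 0.354).

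**Figure D3:**
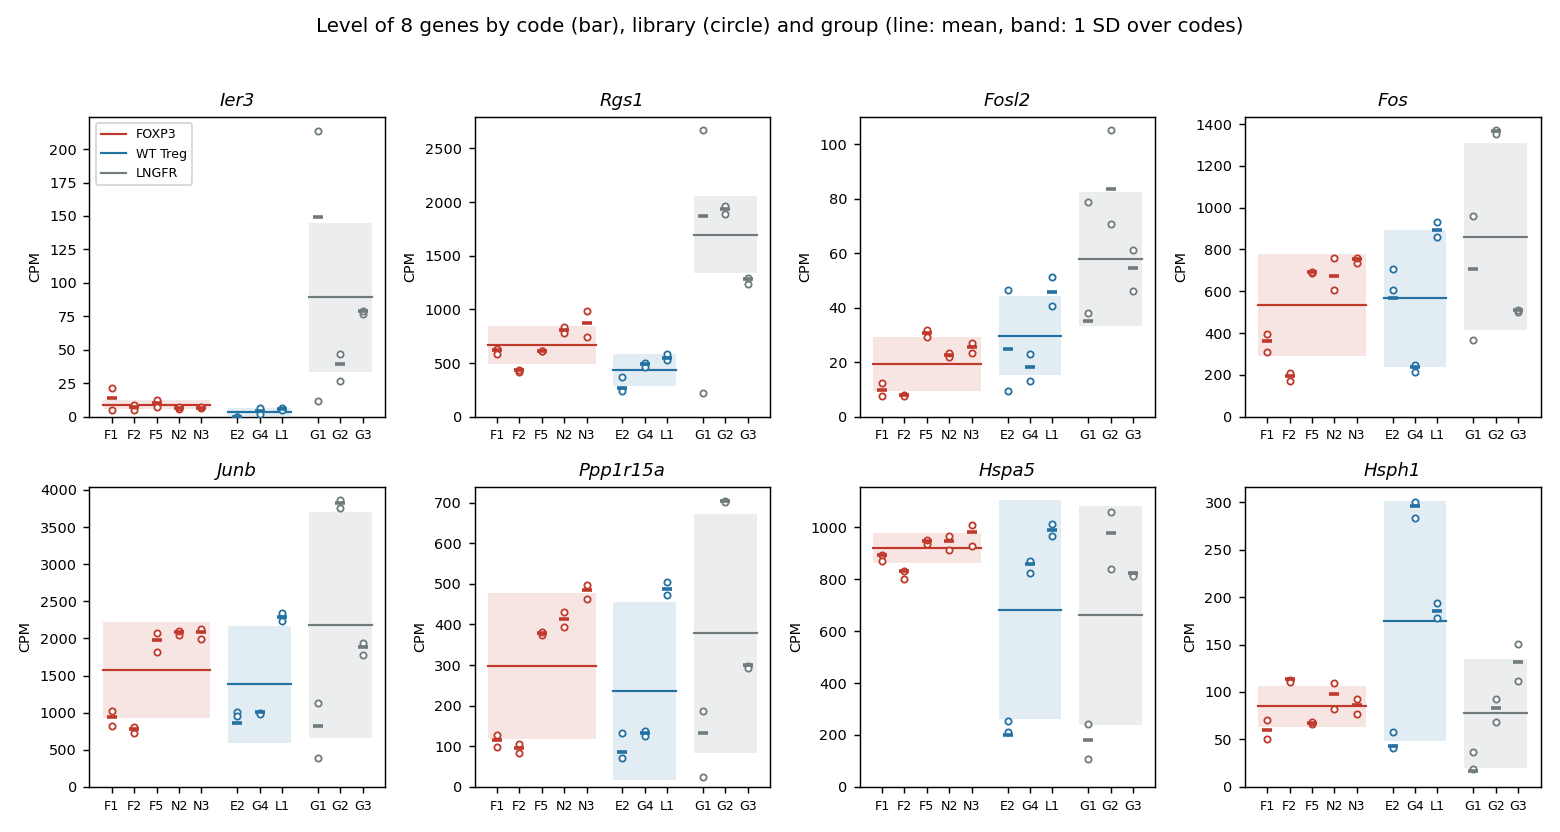
CPM (y axis, from 0) of 8 genes by code (short bars) and library (circles) in FOXP3, WT Treg and LNGFR cells; lines and bands give the group mean and 1 SD over codes. Codes and libraries were TMM-scaled separately, so bars of the shallow codes E2 and G1 can lie outside their circles. LNGFR codes stand apart for Ier3 (39.4 to 149 CPM) and Rgs1 (1283 to 1936 CPM), while Fos, Junb and Ppp1r15a overlap between groups.

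All 6 AP-1 genes had log2 fold changes below 0 in both comparisons with LNGFR, and none passed the test. Their median was -0.73 in FOXP3 against LNGFR cells and -0.63 in WT Treg against LNGFR cells, beside medians over all genes of -0.02 and 0.08. Without G2, 4 of the 6 lay below 0 in each comparison, and the medians were -0.05 and -0.11. Fosl2, a FOS-family subunit that lasts longer after stimulation than Fos, was the lowest by fold change. Fosl2 had 9.75, 7.91, 30.6, 22.7 and 25.7 CPM in FOXP3 codes, 25.0, 18.1 and 45.9 CPM in WT Treg codes and 35.0, 83.7 and 54.7 CPM in LNGFR codes. Every FOXP3 code lay below every LNGFR code, while WT Treg overlapped both. Its log2 fold change was -1.58 ± 0.45 in FOXP3 against LNGFR cells (edgeR adjusted p = 0.171) and -0.94 ± 0.53 in WT Treg against LNGFR cells (edgeR adjusted p = 0.412). Fos, the first FOS subunit to appear after stimulation, had 362, 194, 693, 674 and 756 CPM in FOXP3 codes, 570, 236 and 892 CPM in WT Treg codes and 705, 1366 and 512 CPM in LNGFR codes. Junb, a JUN-family subunit, had 944, 785, 1974, 2083 and 2087 CPM in FOXP3 codes, 857, 1002 and 2283 CPM in WT Treg codes and 823, 3827 and 1883 CPM in LNGFR codes. For both genes the groups overlapped. Junb had log2 fold changes of -0.47 ± 0.52 and -0.66 ± 0.59 against LNGFR (edgeR adjusted p = 0.781 and 0.627).

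Jun, a partner of Fos in AP-1, ranged over 81.0 to 416 CPM in FOXP3 codes, 116 to 492 CPM in WT Treg codes and 147 to 709 CPM in LNGFR codes, and Fosb over 18.9 to 61.0, 15.4 to 53.8 and 34.3 to 109 CPM in the same order of groups. Jund stood at only 5.31 to 8.93 CPM in FOXP3 codes, 6.47 to 15.8 CPM in WT Treg codes and 6.47 to 15.8 CPM in LNGFR codes. Of its 38-base windows 49.4% also occur in Gm11175 on the opposite strand, which had 0 CPM in every code, so the level of Jund is uncertain.

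Among the 7 other immediate early regulators, all had log2 fold changes below 0 in FOXP3 against LNGFR cells and 5 in WT Treg against LNGFR cells, with Ier3 the one that passed in each. Without G2 these counts were 6 and 4. Ier5, an early response gene that also acts on HSF1, had 13.6, 17.9, 18.7, 20.1 and 25.5 CPM in FOXP3 codes, 11.8, 19.6 and 26.9 CPM in WT Treg codes and 51.4, 33.6 and 19.1 CPM in LNGFR codes. G3 lay within the range of the other groups, and the log2 fold changes were -0.85 ± 0.33 in FOXP3 against LNGFR cells (edgeR adjusted p = 0.373) and -0.76 ± 0.38 in WT Treg against LNGFR cells (edgeR adjusted p = 0.376). Klf6, a zinc-finger factor induced early after activation, had 283, 206, 367, 457 and 405 CPM in FOXP3 codes, 284, 257 and 395 CPM in WT Treg codes and 548, 673 and 388 CPM in LNGFR codes. Again G3 overlapped the others, and neither -0.64 ± 0.32 nor -0.78 ± 0.37 passed (edgeR adjusted p = 0.538 and 0.345). Btg1, an antiproliferative gene of resting lymphocytes, had 255, 208, 249.8, 208 and 422 CPM in FOXP3 codes, 171, 251 and 314 CPM in WT Treg codes and 416, 473 and 322 CPM in LNGFR codes. WT Treg codes lay below all LNGFR codes, and FOXP3 code N3 overlapped LNGFR. Ier2, a nuclear early response protein, had 52.3, 76.1, 127, 219 and 113 CPM in FOXP3 codes, 155, 189 and 295 CPM in WT Treg codes and 71.3, 252 and 317 CPM in LNGFR codes, with overlap among all groups. Klf4, a quiescence factor, ranged from 1.76 to 22.6 CPM in FOXP3 codes, from 5.82 to 26.8 CPM in WT Treg codes and from 8.15 to 26.6 CPM in LNGFR codes.

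The integrated stress response genes lay below 0 in both comparisons with LNGFR in 4 of 4 cases, with medians of -0.43 and -0.78, and none passed. Without G2, 2 of 4 lay below 0 in FOXP3 against LNGFR cells, with a median of -0.03, and 3 of 4 in WT Treg against LNGFR cells, with a median of -0.44. Atf4, the transcription factor that carries this response, had 146, 110, 185, 170 and 216 CPM in FOXP3 codes, 63.2, 92.5 and 133 CPM in WT Treg codes and 197, 205 and 138 CPM in LNGFR codes. Every WT Treg code lay below every LNGFR code, by 133 against 138 CPM at the nearest, and FOXP3 codes overlapped both. The log2 fold change was -0.12 ± 0.31 in FOXP3 against LNGFR cells (edgeR adjusted p = 0.902) and -0.89 ± 0.35 in WT Treg against LNGFR cells (edgeR adjusted p = 0.272). Atf3, a repressor induced by stress, was scarce: 0.235, 0, 4.53, 6.54 and 5.55 CPM in FOXP3 codes, 1.32, 0 and 5.99 CPM in WT Treg codes and 8.41, 43.7 and 2.76 CPM in LNGFR codes. G2 alone held most of the LNGFR total, and the fold changes of -2.44 ± 1.23 and -2.74 ± 1.56 on the log2 scale did not pass (edgeR adjusted p = 0.545 and 0.424). A count of 0 allows 0.279 CPM in F2 and 0.485 CPM in G4. Ppp1r15a encodes GADD34, which brings a phosphatase to eIF2 and ends the translational arrest. It had 116, 95.8, 379, 414 and 485 CPM in FOXP3 codes, 86.9, 133 and 487 CPM in WT Treg codes and 132, 703 and 299 CPM in LNGFR codes. The groups overlapped throughout, and its log2 fold changes of -0.34 ± 0.68 and -0.67 ± 0.77 against LNGFR did not pass (edgeR adjusted p = 0.874 and 0.722). Ddit3, the proapoptotic factor CHOP, ranged from 18.4 to 30.7, 23.0 to 32.1 and 21.1 to 46.4 CPM in FOXP3, WT Treg and LNGFR codes.

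The 3 GADD45 genes, which encode small proteins that activate stress kinases and slow the cell cycle, had log2 fold changes below 0 against LNGFR in both comparisons, with medians of -0.74 and -1.06, and none passed. Without G1 the medians were -0.21 and -0.37, and 2 of the 3 lay below 0 in FOXP3 against LNGFR cells. Gadd45b, the most abundant of them, had 74.4, 60.0, 213, 212 and 140 CPM in FOXP3 codes, 42.1, 76.7 and 251 CPM in WT Treg codes and 380, 229 and 95.4 CPM in LNGFR codes. The groups overlapped, and the log2 fold changes were -0.74 ± 0.59 and -0.91 ± 0.68 (edgeR adjusted p = 0.704 and 0.544). Gadd45a stood at 0.279 to 2.50 CPM in FOXP3 codes, 0.666 to 3.95 CPM in WT Treg codes and 2.76 to 3.36 CPM in LNGFR codes. All FOXP3 codes lay below all LNGFR codes for Gadd45a, on 84 counts over FOXP3 codes, 14 over WT Treg codes and 53 over LNGFR codes. Of the ZFP36 family, RNA-binding proteins that destroy transcripts carrying AU-rich elements, Zfp36 had 235, 199, 367, 407 and 454 CPM in FOXP3 codes, 274, 229 and 417 CPM in WT Treg codes and 328, 540 and 307 CPM in LNGFR codes. Zfp36 codes overlapped between all groups, with log2 fold changes of -0.24 ± 0.35 and -0.35 ± 0.40 against LNGFR (edgeR adjusted p = 0.833 and 0.719). Zfp36l2 averaged 55.2 ± 12.2 CPM in FOXP3 codes (SD, n = 5), 56.6 ± 9.99 CPM in WT Treg codes and 75.5 ± 7.88 CPM in LNGFR codes (SD, n = 3 each). Zfp36l1 was the one of the 3 above 0 in both comparisons, at 0.15 ± 0.30 and 0.62 ± 0.34 (edgeR adjusted p = 0.881 and 0.403), and 57.3% of its windows occur in other genes.

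Taking codes that did not overlap at all, 4 genes lay lower in FOXP3 than in LNGFR codes (Fosl2, Ier3, Gadd45a and Rgs1), where 4.67% of all genes did, and none lay higher, where 4.35% of all genes did. In WT Treg against LNGFR codes 5 lay lower (Ier3, Btg1, Zfp36l2, Atf4 and Rgs1), where 8.82% of all genes did, and none higher, where 7.8% did. Over all 40 genes, 31 had fold changes below 0 in FOXP3 against LNGFR cells (51.1% of all genes did), with a median of -0.47, and 30 in WT Treg against LNGFR cells (6971 of the 15462 genes did), with a median of -0.39. These counts changed with G2 left out: 20 of 41 and 23 of 41 then lay below 0, with medians of 0.00 and -0.09. Each fit without a code had its own filter and scaling, with 19233 genes tested without G2. Medians of all genes in fits without a code are not given here. With the values given here, a shift of all genes and one of these genes therefore cannot be told apart.

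Fold changes of the chaperone genes lay on both sides of 0. Of the 7 tested cytosolic chaperone genes, 4 lay below 0 in FOXP3 against LNGFR cells and 2 in WT Treg against LNGFR cells, with medians of -0.02 and 0.19, and none passed. In WT Treg against LNGFR cells the count below 0 was 0 without E2 and 4 without G4. Hsp90ab1, the constitutive cytosolic HSP90, had 1806, 1689, 1947, 2010 and 1564 CPM in FOXP3 codes, 634, 2433 and 2076 CPM in WT Treg codes and 2105, 1722 and 1771 CPM in LNGFR codes. E2 was far below the other codes, and the groups overlapped. The log2 fold changes were -0.05 ± 0.38 and -0.12 ± 0.43 against LNGFR (edgeR adjusted p = 0.974 and 0.932). Hspa8, the constitutive HSP70, ran from 986 to 1591 CPM in FOXP3 codes, from 338 to 1923 CPM in WT Treg codes and from 343 to 1399 CPM in LNGFR codes, the lowest being E2 and G1. Of its windows 42.6% occur in other genes, as do 49.8% of those of Hsp90aa1. Hsph1, the HSP110 that recharges HSP70 with nucleotide, had 59.8, 113, 67.7, 97.7 and 85.8 CPM in FOXP3 codes, 43.4, 296 and 186 CPM in WT Treg codes and 16.8, 83.2 and 132 CPM in LNGFR codes. G4 and L1 were the highest of all codes, and E2, of the same group, was among the lowest. The log2 fold change of Hsph1 was 0.13 ± 0.58 in FOXP3 against LNGFR cells (edgeR adjusted p = 0.951) and 1.19 ± 0.66 in WT Treg against LNGFR cells (edgeR adjusted p = 0.408). Hsf1, the factor that drives heat shock genes, stood at 68.2 to 107 CPM in FOXP3, 88.2 to 94.8 CPM in WT Treg and 39.3 to 113 CPM in LNGFR codes.

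Hspa5, or BiP, the chaperone whose start region carries the ER stress response element printed above, had 894, 833, 947, 945 and 983 CPM in FOXP3 codes, 201, 859 and 989 CPM in WT Treg codes and 180, 977 and 825 CPM in LNGFR codes. E2 and G1, the codes of the shallow libraries, were the lowest of all codes. The first library of G1, which was not one of the 3 shallow ones, also had a low level of 243 CPM. The log2 fold changes were 0.48 ± 0.53 and 0.05 ± 0.59 against LNGFR (edgeR adjusted p = 0.782 and 0.982). Hsp90b1 ranged over 505 to 605, 140 to 515 and 210 to 599 CPM in FOXP3, WT Treg and LNGFR codes, and Xbp1, the transcription factor of this response and of plasma cells, over 186 to 300, 101 to 257 and 79.7 to 358 CPM. The mitochondrial chaperonin Hspd1, or HSP60, had 151, 129, 129, 106 and 83.5 CPM in FOXP3 codes, 44.8, 188 and 141 CPM in WT Treg codes and 43.7, 101 and 130 CPM in LNGFR codes. Its partner Hspe1, or HSP10, had 66.3 to 81.4 CPM in FOXP3 codes, 18.4 to 97.5 CPM in WT Treg codes and 77.1 to 214 CPM in LNGFR codes, where the 214 CPM of G1 came from 308 and 6.05 CPM in its libraries. Neither gene passed: the log2 fold changes of Hspd1 were 0.39 ± 0.43 and 0.47 ± 0.48 against LNGFR (edgeR adjusted p = 0.783 and 0.683). The exons of Hspd1 and Hspe1 overlap on opposite strands and the counting is not stated to use strand, so reads from the overlap cannot be told apart. The same holds for Jun, Junb, Jund, Zfp36, Zfp36l1, Zfp36l2, Gadd45a, Ddit3, Ppp1r15a, Hsp90b1, Hspa1a and Dnaja1, whose exons overlap an antisense gene.

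Of the remaining genes, Sgk1, a kinase induced by serum and glucocorticoids, had 65.2 to 154 CPM in FOXP3 codes, 21.1 to 97.9 CPM in WT Treg codes and 8.74 to 124 CPM in LNGFR codes. Tsc22d3, or GILZ, a glucocorticoid-induced inhibitor of AP-1 and NF-kB, had 497 to 715 CPM, 266 to 542 CPM and 231 to 830 CPM in the same groups. Hmox1, the oxidant-induced heme oxygenase, was scarce, with 5.23 to 8.63 CPM in FOXP3 codes, 0 to 6.31 CPM in WT Treg codes and 5.39 to 8.96 CPM in LNGFR codes. None passed in any comparison. Dnaja1 and Dnajb1, the HSP40 partners of HSP70, and Hsp90aa1 ranged over 151 to 220, 112 to 172 and 115 to 160 CPM in FOXP3 codes and also did not pass.

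FOXP3 against WT Treg cells asks how closely the engineered cells match natural ones. None of the 40 genes passed by edgeR, where 0.136% of all genes rose and 0.123% fell. Atf4 and Btg2 had an unadjusted p under 0.05, or 2 of 40, beside 2547 of the 15462 genes, a larger share. DESeq2 called none, and limma voom with quality weights called 2 lower, Btg2 and Zfp36l1. Fold changes of 23 genes were above 0, and the median of the 40 was 0.09 beside 0.01 for all genes. The direction changed with the code left out: without E2, 23 lay below 0 with a median of -0.07, and without L1, 10 of 41 lay below 0 with a median of 0.33. Medians of all genes in these 2 fits are not given here either. Atf4, with the values given above, had a log2 fold change of 0.76 ± 0.32 (edgeR adjusted p = 0.244), and its codes overlapped. Btg2, an antiproliferative gene induced by p53 and by mitogens, had 237, 221, 246, 276 and 261 CPM in FOXP3 codes, against 322, 451 and 588 CPM in WT Treg codes, and 150.0, 593 and 377 CPM in LNGFR codes. All FOXP3 codes lay below all WT Treg codes, and the log2 fold change was -0.87 ± 0.37 (edgeR adjusted p = 0.254). Ier3 had a log2 fold change of 1.02 ± 0.53 (edgeR adjusted p = 0.374). Ier3 was the 1 gene higher without overlap, where 6.12% of all genes were, and Btg2 the 1 gene lower, where 6.25% of all genes were. The log2 fold changes of Hsph1 and Ier2 were -1.06 ± 0.57 and -0.86 ± 0.49 (edgeR adjusted p = 0.392 and 0.423), and that of Rgs1 was 0.62 ± 0.35 (edgeR adjusted p = 0.413). Without codes E2, G1 and N3, Btg2, Zfp36l1, Hsph1 and Dnaja1 passed as lower and Sgk1 as higher, where 3.57% of all genes passed as lower and 3.85% as higher. For Btg2 the log2 fold change was then -1.09 (edgeR adjusted p = 0.00323) and for Hsph1 -1.51 (0.0194). A missed threshold does not show that FOXP3 and WT Treg cells were alike.

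Leaving out codes E2, G1 and N3 also widened the calls against LNGFR, among all genes as well as these, with fewer codes in each group. In FOXP3 against LNGFR cells 5 genes then fell (Ier3, Btg1, Btg2, Xbp1 and Rgs1) and none rose, where 4.04% of all genes fell and 6.61% rose. In WT Treg against LNGFR cells Zfp36l1 and Hsp90aa1 rose and Ier3 and Rgs1 fell, where 4.19% of all genes rose and 3.47% fell. Without only the 3 shallow libraries, Ier3 and Rgs1 fell in both comparisons and no gene rose, where 0.97% of all genes fell and 0.657% rose in FOXP3 against LNGFR cells and 1.02% fell and 1.05% rose in WT Treg against LNGFR cells. In FOXP3 against WT Treg cells none then passed, where 0.195% of all genes rose and 0.234% fell.

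Calls also varied with the tool, among all genes and among these. For FOXP3 against LNGFR cells, limma voom with quality weights called Ier3, Rgs1, Fosl2 and Btg2 lower, where 3.4% of all genes were called lower and 3.38% higher. DESeq2 called Ier3 and Rgs1 lower there, beside 0.993% lower and 1.16% higher among all genes. With no expression filter Ier3, Fosl2 and Atf3 were called lower, beside 0.307% lower and 0.394% higher, and with the 22 libraries kept apart in limma Ier3 and Fosl2, beside 1.84% lower and 1.95% higher. For WT Treg against LNGFR cells, the shares of all genes called lower and higher were 2.73% and 2.88% by limma voom, 2.05% and 3.21% by DESeq2, 0.605% and 1.53% with no expression filter and 1.93% and 2.41% with 22 libraries kept apart. Ier3 was called lower in all 4, Rgs1 by limma voom and DESeq2, and Atf3 with no expression filter. For FOXP3 against WT Treg cells they were 4.61% and 2.28%, 13.8% and 1.41%, 6.84% and 0.861%, and 2.19% and 0.908% in the same order, and Btg2 and Zfp36l1, called lower by limma voom, were the only calls among the 40 genes in these 4 settings.

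Many of the immediate early genes differed widely between codes of 1 group. Within FOXP3, F1 and F2 were the lowest codes for 6 of 6 AP-1 genes, 5 of 7 other immediate early regulators, 3 of 4 integrated stress response genes and 2 of 3 GADD45 genes. They were the lowest for none of the 7 cytosolic chaperone genes and none of the mitochondrial chaperonins, and for 10.5% of all genes tested. The highest FOXP3 code exceeded the lowest 3.90-fold for Fos, 5.14-fold for Jun, 5.07-fold for Ppp1r15a, 3.56-fold for Gadd45b and 5.54-fold for Rgs2, against 1.18-fold for Hspa5 and 1.29-fold for Hsp90ab1. Within WT Treg, L1 lay above G4 for 6 of 6 AP-1 genes, 7 of 7 other immediate early regulators and 4 of 4 integrated stress response genes, but for 1 of 7 cytosolic chaperone genes and for 51.0% of all genes. L1 exceeded G4 3.78-fold for Fos, 3.67-fold for Ppp1r15a, 3.27-fold for Gadd45b and 4.53-fold for Rgs2. Within LNGFR, G2 was the highest code for 5 of 6 AP-1 genes and for 26.2% of all genes. It was also highest for 3 of 4 integrated stress response genes, but for 3 of 7 other immediate early regulators and 0 of 3 GADD45 genes. G1 was the highest for 3 of 3 GADD45 genes and for 43.7% of all genes. This order of codes was noticed after the values were seen, and it is given as a description with no test.

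**Figure D4:**
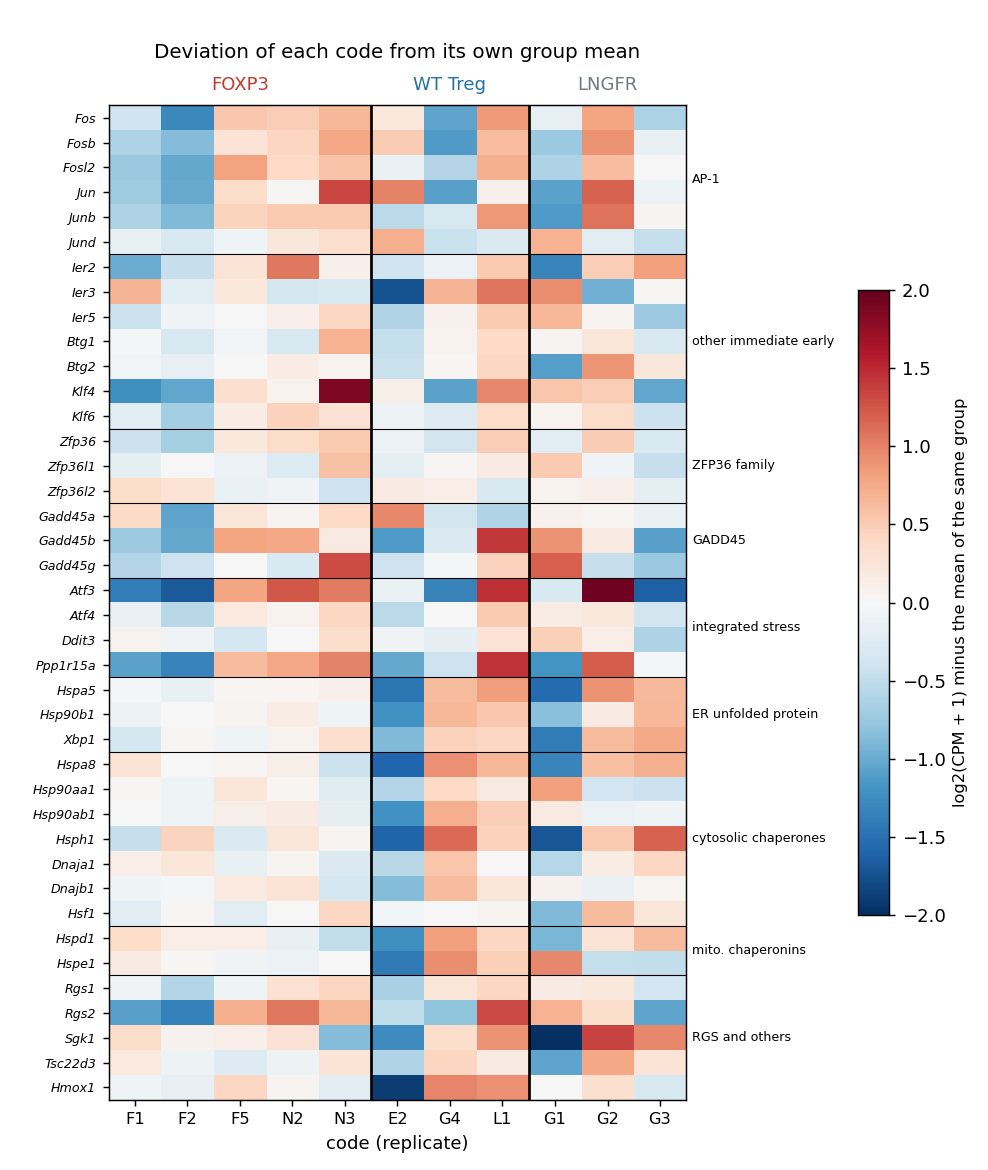
Deviation of each code (columns) from the mean of its own group for the 40 tested genes (rows, by role), in log2(CPM + 1), with red above and blue below the group mean. F1 and F2 are blue and F5, N2 and N3 mostly red for the AP-1 genes, Ppp1r15a, Gadd45b and Rgs2, while E2 and G1 are blue for Hspa5, Hspa8 and Hsph1.

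For several of these genes the libraries of a code lay close together. Fos had 394 and 311 CPM in the libraries of F1, 169 and 210 CPM in those of F2 and 687 and 692 CPM in those of F5. Ppp1r15a had 127 and 97.6 CPM, 106 and 83.4 CPM and 375 and 380 CPM in the same codes. On the scale of log2(CPM + 1), the SD between FOXP3 codes was 0.84 for Fos, 0.69 for Junb, 1.11 for Ppp1r15a and 0.84 for Gadd45b. The SD between the libraries of a code, over the 9 codes other than E2 and G1, was 0.15, 0.10, 0.13 and 0.07 for the same genes. For the 5 AP-1 genes with a mean of at least 10 CPM, the median SD was 0.825 between FOXP3 codes and 0.159 between libraries of a code, and the median ratio was 5.76. For the 3 endoplasmic reticulum genes these values were 0.107, 0.133 and 0.868. For the 8857 genes tested at that level they were 0.244, 0.209 and 1.18. For Ier3 the SD was 0.44 between FOXP3 codes and 0.62 between libraries. The labels give no sort time, batch or animal by code, so a difference between animals and one of handling cannot be told apart.

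**Figure D5:**
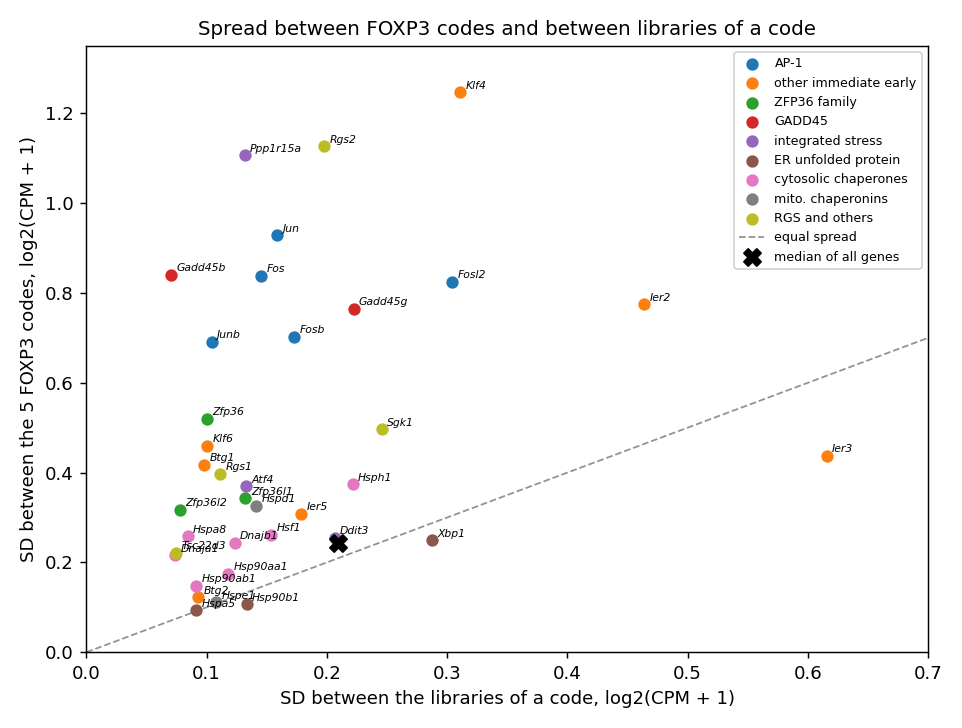
SD between the 5 FOXP3 codes (y axis) against SD between the libraries of a code (x axis), both in log2(CPM + 1), for the genes with a mean of at least 10 CPM, coloured by role; the dashed line marks equal spread and the cross the median of all genes (0.209, 0.244). Klf4, Rgs2, Ppp1r15a, Gadd45b and the AP-1 genes lie far above the line, and Hspa5, Hsp90b1 and Xbp1 lie close to it or below it.

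In FOXP3 code N3, which carried B-cell transcripts, Btg1 had 422 CPM, Klf4 22.6 CPM, Zfp36l1 239 CPM and Gadd45g 165 CPM. The other FOXP3 codes had at most 255, 7.22, 158 and 65.8 CPM of these. N3 was also the highest FOXP3 code for other genes described above, among them Fos, Jun, Ppp1r15a, Hspa5, Xbp1 and Rgs1. For others, among them Hspa8, Hspd1 and Sgk1, it was the lowest. The share of all genes for which N3 was highest is not given here. Cd79a, a B-cell receptor subunit, had 994 CPM in N3. The part of B-cell RNA in the level of any of the genes was not tested. Without N3, Ier3 was still the only one of the genes called lower in FOXP3 against LNGFR cells.

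Genes of the same pathways outside the 42 were taken from 8 lists with 139 genes, of which 131 were tested, from further AP-1 and immediate early genes to co-chaperones, endoplasmic reticulum stress, integrated stress, oxidant and glucocorticoid response genes. None passed by edgeR in any of the 3 comparisons, against the shares of all genes given above. At an unadjusted p under 0.05 there were 8 in FOXP3 against LNGFR, 18 in WT Treg against LNGFR and 13 in FOXP3 against WT Treg cells, beside 1595, 2290 and 2547 of the 15462 genes. In each comparison the share among the 131 pathway genes was below that among all genes. DESeq2 called 0 higher and 0 lower, 3 higher and 3 lower, and 2 higher and 4 lower in these comparisons, and limma voom with quality weights 3 and 3, 4 and 4, and 1 and 3. Their medians were 0.07, -0.04 and 0.23 on the log2 scale. The 22 tested further immediate early genes had 17 fold changes below 0 in FOXP3 against LNGFR cells and 13 in WT Treg against LNGFR cells. The 32 further cytosolic chaperone genes had 12 and 13 below 0, and the 26 further endoplasmic reticulum stress genes 8 and 17. The 13 further integrated stress response genes had 9 above 0 in both comparisons, with medians of 0.29 and 0.36, where the 4 described above lay below 0. In FOXP3 against WT Treg cells, 24 of the 26 endoplasmic reticulum stress genes lay above 0, where 7792 of the 15462 genes did. The median of the 26 was 0.49 beside 0.01 for all genes. Without E2, 21 of the 26 lay above 0, with a median of 0.20, and the median of all genes in that fit is not given here. Without codes E2, G1 and N3, 5 of the 131 pathway genes were called higher and 4 lower in FOXP3 against LNGFR cells, smaller shares than the 6.61% and 4.04% of all genes.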

How the data were processed

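RNA-seq libraries were aligned with STAR 2.7.3a to mm10 (GRCm38) and counted per gene with featureCounts of Subread 2.0.0, per the submitters' processing notes. The deposited values are raw counts per gene and library. The members and lists were chosen with earlier results of these data known. Libraries of a code were summed, giving 5 FOXP3, 3 WT Treg and 3 LNGFR replicates with 1154626 to 10376164 counts. All 3 groups were fitted together with edgeR 4.0.16 (robust quasi-likelihood test, TMM scaling, filterByExpr; R 4.3.3), with Benjamini-Hochberg adjustment over 15462 genes and a threshold of 0.05. The standard error is the log2 fold change divided by the square root of F. Alternatives used edgeR with relative log expression size factors in place of TMM, and DESeq2 1.42.0. Others used limma 3.58.1 voom, other filters and left-out libraries or codes. The fit was tested on simulated data. The common biological coefficient of variation was 0.491. Values per code are given for genes called in any comparison, for the 6 with the smallest p in each comparison and for the highest by mean CPM of each role. Others that are given per code were chosen after their values were seen. Marker and pathway lists were written by hand. Motifs were searched on both strands of RefSeq start regions (GRCm38.p6). Intervals are exact Poisson, at 95%. Files give no batch, so none was fitted.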

Additional observations from a re-analysis of the deposited data

Results flagged for a closer look

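In FOXP3 cells, code N3 stood far from the other 4 codes for 4 genes: Btg1 at 422 CPM, Klf4 at 22.6 CPM, Zfp36l1 at 239 CPM and Gadd45g at 165 CPM. By the same measure, chance sets apart a sample in about 1 in 20 groups. With 40 genes tested in each of 3 groups, several such cases can arise by chance, so these 4 genes are given as a description only. The libraries of N3 had 12850 and 14579 CPM over 12 B-cell markers, and the part of B-cell RNA in these levels was not tested.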

How the results depend on the processing

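No paired analysis was possible because no label ties a code of 1 group to a code of another by animal, litter or batch, although some codes share a letter or a number. Ier3 kept its call and direction in both comparisons with LNGFR under all 18 alternatives. Of 324 values for single named genes, 304 kept their direction and side of the threshold, 12 newly passed, 8 no longer passed and none reversed. Genes called lower in FOXP3 against LNGFR cells, 1 in all, were 3 with no expression filter (Ier3, Fosl2 and Atf3), 2 by DESeq2, 4 by limma voom, 2 with 22 libraries kept apart, 2 without the 3 shallow libraries, 5 without codes E2, G1 and N3, and 1 to 2 with 1 code left out (2 without E2). Genes called lower in WT Treg against LNGFR cells, 2 in all, were 1 with 22 libraries kept apart and 1 to 2 with 1 code left out. Genes called higher there, 0 in all, were 1 by limma voom and 2 without codes E2, G1 and N3. In FOXP3 against WT Treg cells, limma voom called 2 lower, and leaving out codes E2, G1 and N3 gave 1 higher and 4 lower, against 0 and 0. Rgs1 in WT Treg against LNGFR cells ranged from -2.17 to -1.18 and was also lost with no expression filter (edgeR adjusted p = 0.134) and with 22 libraries kept apart (limma adjusted p = 0.298). Fosl2 in FOXP3 against LNGFR cells ranged from -2.03 to -1.09 and passed with no expression filter (edgeR adjusted p = 0.0210), by limma voom (0.0384) and with 22 libraries kept apart (0.00457). The median of all genes in FOXP3 against WT Treg cells, 0.01, was -0.42 with no filter and -0.98 by DESeq2. The causes were not tested. WT Treg and LNGFR had 3 codes each, 1 of them with a shallow library, which limits the precision of every comparison with them.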
